A study of Homo sapiens with 18 samples.

Results

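RTKN2, EVI5 and CLDN16 are 3 genes whose RNA was lower on all 3 arrays of SKBR3 breast cancer cells transfected with an antisense oligonucleotide (ASO) to LINC01269, a long non-coding RNA, with a wide spread between those arrays. They were chosen by gene symbol among 14884 distinct symbols on the array, with their low values and wide spread in SKBR3 already known, so the SKBR3 values below are a description with no test. By size alone they were not the 3 deepest. RTKN2 had the lowest mean difference of the 12003 named features tested, EVI5 ranked 5 and CLDN16 ranked 17. Each has 1 feature, and all 3 passed the filter on dim features.

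RTKN2, rhotekin 2, is a member of the rhotekin family and carries a pleckstrin homology domain, a fold found in many signalling proteins. EVI5 carries a TBC domain, the fold that switches off Rab GTPases of vesicle traffic, and is known to stabilise EMI1, the inhibitor of the anaphase-promoting complex encoded by FBXO5. CLDN16, claudin 16, is a tight junction protein known for the passage of magnesium and calcium between the epithelial cells of the kidney's thick ascending limb, and its loss causes an inherited magnesium wasting disease. Antisense oligonucleotides of the GapmeR type direct the enzyme RNase H to cut the RNA that they pair with.

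The data comprise 18 arrays of the Affymetrix Human Gene 2.0 ST design, 3 in each of 6 groups. SKBR3, known as a HER2-positive line, was given the anti-LINC01269 ASO or a control ASO. MDA-MB-231 and MDA-MB-468, triple-negative lines, were each given an ASO against another long non-coding RNA, AL078604.2, or the control ASO. All cells were exposed to 15 nM of ASO with the TransIT-BrCa transfection reagent for 48 h, control cells included. The labels name 1 anti-LINC01269 ASO, so an effect of losing LINC01269 and an effect of that oligonucleotide on other RNAs cannot be told apart, and neither target has a named feature from which its level could be read. Nothing states that replicates came from separate cultures, so errors and p-values measure the spread between these arrays.

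Array medians lay between 4.56 and 4.63 log2 units in SKBR3, 5.41 and 5.43 in MDA-MB-231, and 5.21 and 5.24 in MDA-MB-468, so levels are set across lines only on a quantile-normalised scale. Markers did not settle the line labels, and the lines are named here as the labels give them. In control arrays of SKBR3, MDA-MB-231 and MDA-MB-468, in that order, GRB7, a gene of the HER2 amplicon, stood at the 79.1, 81.3 and 78.8 percentile of all features and so was no higher in SKBR3, and ERBB2 itself had no named feature. The luminal genes KRT8 (77.6, 74 and 75.5) and KRT18 (98.7, 98.5 and 97) were highest in SKBR3. So were KRT19 (98.3, 98 and 98) and ESR1 (59.8, 55.5 and 52.4), also luminal. EGFR, known for its high level in MDA-MB-468, stood at 99, 98.2 and 98.7. The mesenchymal genes VIM (76.1, 76.6 and 82.1) and ZEB1 (43.7, 45.8 and 33.3) and the epithelial genes EPCAM (98.9, 99.2 and 99.3) and ESRP1 (98.1, 98.1 and 98) did not mark out MDA-MB-231, known as mesenchymal. Nor did FN1, also mesenchymal (88.9, 87 and 88.4). Some markers differed more between the lines. The mesenchymal gene AXL (80.7, 83.2 and 60.1) and RB1, chosen as a line check (47.7, 60.3 and 24.9), were lowest in MDA-MB-468. The basal genes KRT5 (69.6, 73.4 and 85.8) and KRT14 (71.9, 89.2 and 79.3) were lowest in SKBR3. The endothelial gene PECAM1 stood at 32.4, 43.3 and 40, and the kidney tubule genes UMOD and SLC12A1 and the lymphocyte genes PTPRC and CD3E had no named feature and were not analysed here. Of the SKBR3 arrays, anti-LINC01269 replicate 1 stood farthest apart, with correlations of 0.976 to 0.981 to the other 5 arrays and 0.78% of 29855 tested features at least 2-fold below the control mean. The same share was 0.35% in replicate 2 and 0.55% in replicate 3. Each control array set against the other SKBR3 controls gave 0.43% to 0.60%.

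The bases upstream of the RefSeq starts of the 3 genes are shown so that the start regions of RNAs that were lower on the same arrays can be compared. RTKN2 lies on chromosome 10 (62183900 to 62268844, GRCh38.p14), EVI5 on chromosome 1 (92508696 to 92792410) and CLDN16 on chromosome 3 (190290361 to 190412138), whereas LINC01269 lies on chromosome 14 (70698698 to 70712153). RefSeq gives 1 start window for RTKN2 and 2 each for EVI5 and CLDN16. Each line holds the 250 bases before a start, read 5′ to 3′ on the gene's strand, with motif matches on either strand in capitals. The motifs were TATAAA (the TATA box), CCAAT (the box bound by NF-Y), GGGCGG (the box bound by SP1), CACGTG (the E-box bound by MYC), TGACTCA (the site bound by AP-1) and CACCTG (the E-box bound by ZEB and SNAIL proteins), and none of them contains another.
RTKN2, chr10:62268845-62269094, minus strand: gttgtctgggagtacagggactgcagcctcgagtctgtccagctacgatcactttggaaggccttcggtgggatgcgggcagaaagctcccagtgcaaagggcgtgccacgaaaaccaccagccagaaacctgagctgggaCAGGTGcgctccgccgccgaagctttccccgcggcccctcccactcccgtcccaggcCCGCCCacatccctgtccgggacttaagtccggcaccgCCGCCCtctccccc
EVI5, upstream start, chr1:92792411-92792660, minus strand: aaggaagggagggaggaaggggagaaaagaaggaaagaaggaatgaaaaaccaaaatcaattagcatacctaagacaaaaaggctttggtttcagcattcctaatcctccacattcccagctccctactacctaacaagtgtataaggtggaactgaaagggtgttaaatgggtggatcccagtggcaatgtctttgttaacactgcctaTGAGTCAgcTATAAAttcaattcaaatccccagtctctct
EVI5, downstream start, chr1:92785109-92785358, minus strand: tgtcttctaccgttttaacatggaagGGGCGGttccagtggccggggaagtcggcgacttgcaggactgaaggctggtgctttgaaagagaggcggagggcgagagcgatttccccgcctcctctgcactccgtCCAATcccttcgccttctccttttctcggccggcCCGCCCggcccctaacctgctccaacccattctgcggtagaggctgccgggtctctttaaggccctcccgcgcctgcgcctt
CLDN16, upstream start, chr3:190290111-190290360, plus strand: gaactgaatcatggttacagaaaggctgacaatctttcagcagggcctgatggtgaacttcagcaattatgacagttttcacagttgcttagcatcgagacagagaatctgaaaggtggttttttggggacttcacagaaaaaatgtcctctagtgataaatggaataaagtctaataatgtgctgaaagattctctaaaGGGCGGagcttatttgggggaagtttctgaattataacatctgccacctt
CLDN16, downstream start, chr3:190387913-190388162, plus strand: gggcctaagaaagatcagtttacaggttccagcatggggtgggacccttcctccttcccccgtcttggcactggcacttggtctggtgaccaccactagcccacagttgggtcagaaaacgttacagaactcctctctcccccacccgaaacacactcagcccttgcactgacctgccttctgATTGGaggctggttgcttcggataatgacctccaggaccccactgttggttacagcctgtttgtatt

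The start windows had little in common. The RTKN2 window was 66% G and C with 18 CpG pairs, and the downstream EVI5 window 62.8% with 20, above the medians of 58% and 11 over 35116 RefSeq windows. The upstream EVI5 window was 42% G and C with 0 CpG pairs, the upstream CLDN16 window 40% with 2, and the downstream CLDN16 window 54.8% with 4. Over the full windows, which run 50 bases past the start, GGGCGG was present in 3 of the 5 member windows and in 45% of all windows. CCAAT and CACCTG were each present in 2 of 5, against 34.6% and 20.6% of all windows, while TATAAA and TGACTCA were each in 1 of 5, the upstream EVI5 window, against 11.5% and 4.9%. No member window held CACGTG, which 7.3% of all windows held. The CACCTG match of the downstream CLDN16 window and 1 GGGCGG match of RTKN2 lie past the printed bases. These matches are descriptions of the letters.

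The genes were longer than most. Their annotated spans were 84.9 kb for RTKN2, 283.7 kb for EVI5 and 121.8 kb for CLDN16, against a median of 23.1 kb over the 11149 named genes tested. They exceeded 82.2%, 96.9% and 88.4% of those genes in the same order.

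RTKN2 was the lowest of the 3 relative to its control. It read 5.76, 7.61 and 5.98 log2 units on anti-LINC01269 replicates 1, 2 and 3, against 8.01, 8.07 and 8.03 on the SKBR3 control arrays. All 3 anti-LINC01269 arrays lay below all 3 controls, but replicates 1 and 3 lay far below and replicate 2 close to them. On the linear scale those arrays held 20.7%, 74.4% and 24.0% of the control mean. The group means were 6.45 ± 1.01 with anti-LINC01269 and 8.04 ± 0.03 with control ASO (SD, n = 3 each), a log2 difference of -1.59 ± 0.315 (SE from the limma fit to all 18 arrays).

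EVI5 had the same array order with a graded distance. It read 5.01, 6.77 and 5.69 log2 units on anti-LINC01269 replicates 1, 2 and 3, against 7.10, 7.03 and 6.88 on the control arrays. Replicate 2 was 0.11 below the lowest control, so the groups only just failed to overlap. The arrays held 25.1%, 85.2% and 40.3% of the control mean. The means were 5.82 ± 0.89 with anti-LINC01269 and 7.002 ± 0.11 with control ASO (SD, n = 3 each), a log2 difference of -1.18 ± 0.276 (SE).

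CLDN16 had the smallest difference of the 3. It read 5.04, 6.01 and 5.41 log2 units on anti-LINC01269 replicates 1, 2 and 3, against 6.23, 6.26 and 6.23 on the control arrays. The highest anti-LINC01269 array was 0.22 below the lowest control, and the order of the arrays was that seen for EVI5. They held 43.7%, 85.4% and 56.5% of the control mean. The means were 5.49 ± 0.49 with anti-LINC01269 and 6.24 ± 0.02 with control ASO (SD, n = 3 each), a log2 difference of -0.75 ± 0.171 (SE).

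**Figure D1:**
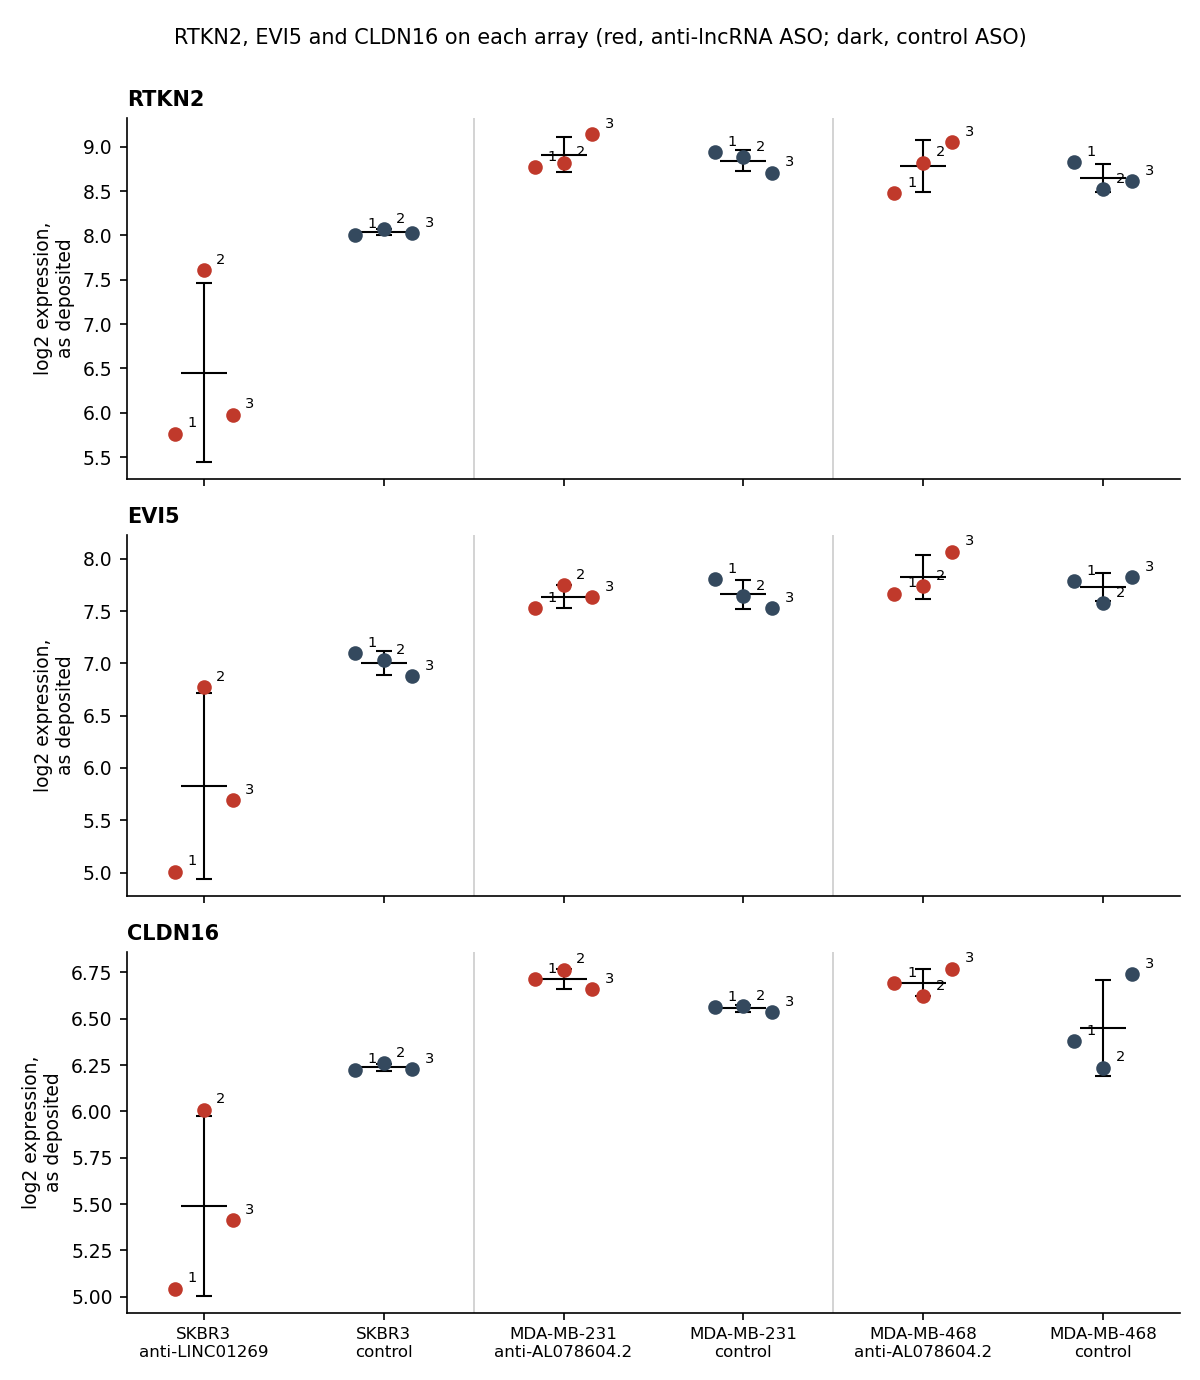
Log2 expression as deposited for RTKN2, EVI5 and CLDN16 on each array, with points numbered by replicate and bars giving the mean ± SD of the 3 arrays of a group. In SKBR3, replicates 1 and 3 of the anti-LINC01269 group lie well below the control arrays and replicate 2 just below them, and heights are not comparable between lines, whose array medians differ.

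Counts in SKBR3 stand beside the background only as a record, since that contrast chose the genes. The 3 genes were among 4.26% of 29855 tested features whose anti-LINC01269 arrays all lay below the control arrays. At an adjusted p under 0.05 limma called 0 of 29855 features (0%), and at an unadjusted p under 0.05 it had 2736, with 1132 of them lower.

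The differences depended on which anti-LINC01269 array was kept. Without replicate 2 they were -2.16 for RTKN2, -1.65 for EVI5 and -1.01 for CLDN16 on the log2 scale, or 22.3%, 31.8% and 49.7% of the control mean. Without replicate 1, the array farthest from the others, they were -1.24, -0.77 and -0.53, and without replicate 3 they were -1.35, -1.11 and -0.71. For EVI5, leaving out replicate 1 gave 58.6% of the control mean in place of 44.2%, and for RTKN2 leaving out replicate 2 gave 22.3% in place of 33.3%. The count of features called over the whole table was 231 without replicate 2 and 0 without replicate 1.

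The spread of the 3 genes was wide in the anti-LINC01269 group and not in the SKBR3 controls. The genes were chosen with that wide spread known, so the shares for the anti-LINC01269 group describe the choice and are not a result. The SD of RTKN2 over the anti-LINC01269 arrays, 1.01, exceeded that of 99.7% of tested features, whereas its SD over the SKBR3 control arrays, 0.031, exceeded that of 6.95%. For EVI5 the corresponding SDs were 0.889 and 0.114, above 99.4% and 47.0% of features. For CLDN16 they were 0.488 and 0.0196, above 95.3% and 2.95%. Compared with the 1000 features nearest to it in mean level, RTKN2 exceeded 99.7% in the anti-LINC01269 group, EVI5 99.8% and CLDN16 94.5%. In MDA-MB-468, CLDN16 had an SD of 0.0745 with anti-AL078604.2 and 0.259 with control ASO, and the value with control ASO exceeded 90.1% of features. RTKN2 in that line had SDs of 0.29 and 0.158 in the same order, above 86.6% and 71.8% of features. Those of EVI5 were 0.214 and 0.133, above 73.1% and 63.5%.

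**Figure D2:**
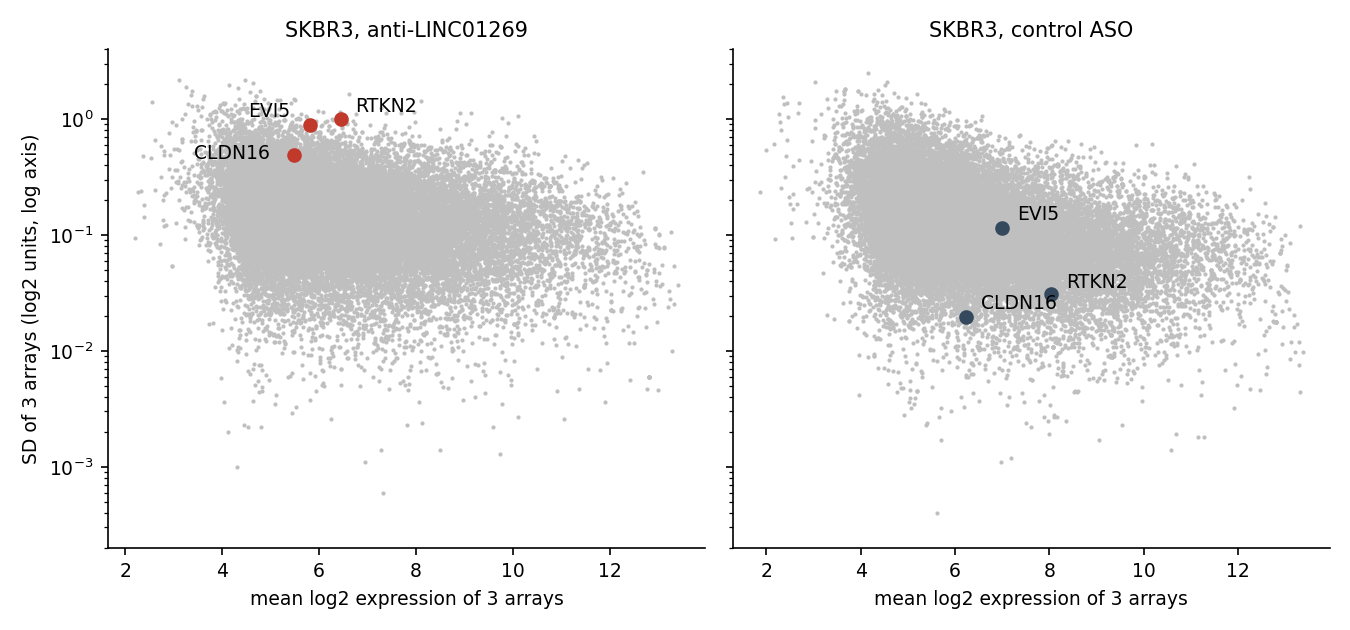
SD of the 3 arrays of a group (log axis) against their mean log2 expression for every tested feature (grey), in the SKBR3 anti-LINC01269 group on the left and the SKBR3 control group on the right, where features with an SD under the axis are not drawn. RTKN2 (SD 1.01), EVI5 (0.889) and CLDN16 (0.488) sit at or near the upper edge on the left and lie at 0.031, 0.114 and 0.0196 on the right.

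The array order of the 3 genes was shared by other named genes. With anti-LINC01269, 10 named features were at least 2-fold lower in the mean, RTKN2 and EVI5 among them, and all 10 had replicate 1 lowest, then replicate 3, then replicate 2. That order was found in 24.2% of all 12003 named features, unchanged and higher ones included. The 10 were picked for their low means on these same arrays, so the shares are not alike and were not tested. The other 8, listed after their values were seen, were CCDC91 (-1.33), RASAL2 (-1.31), HIBCH (-1.30), TMF1 (-1.13), HLTF (-1.13), UBE2K (-1.02), SMIM8 (-1.004) and TP53INP1 (-1.001). RASAL2 is a Ras GTPase-activating protein, HIBCH an enzyme of valine breakdown and HLTF a DNA translocase of replication fork repair. RTKN2 stood at -2.06 on replicate 3, where the other 9 ran from -1.41 to -0.91, and at -0.43 on replicate 2, where the other 9 ran from -0.24 to -0.01. Counted array by array, 71 named features were at least 2-fold below the control mean in replicate 1, 4 in replicate 2 and 12 in replicate 3.

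**Figure D3:**
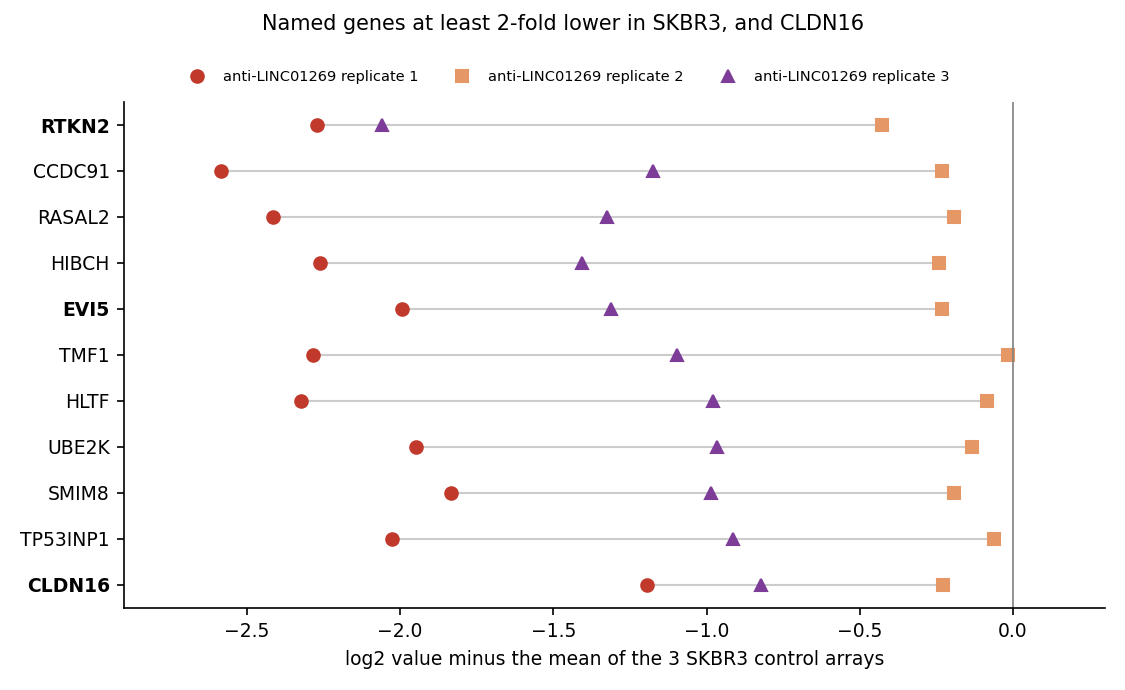
Log2 value on each anti-LINC01269 array minus the mean of the 3 SKBR3 control arrays, for the 10 named genes at least 2-fold lower in the mean and for CLDN16 (bold, the 3 genes described). In every gene shown replicate 1 is lowest and replicate 2 nearest to 0, and for RTKN2 replicate 3 (-2.06) lies close to replicate 1 (-2.27).

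In MDA-MB-231 none of the 3 genes passed the test after the anti-AL078604.2 ASO, where limma called 0.171% of features. RTKN2 read 8.77, 8.82 and 9.14 log2 units on anti-AL078604.2 replicates 1, 2 and 3, against 8.94, 8.89 and 8.71 on the control arrays. The groups overlapped, with replicate 3 of the anti-AL078604.2 group the highest array. The log2 difference was 0.07 (95% interval -0.60 to 0.73, limma adjusted p = 0.978).

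EVI5 in MDA-MB-231 read 7.53, 7.75 and 7.63 log2 units with anti-AL078604.2, against 7.81, 7.64 and 7.53 with control ASO. The anti-AL078604.2 arrays lay inside the range of the controls, with a log2 difference of -0.02 (95% interval -0.61 to 0.56, limma adjusted p = 0.993). CLDN16 in the same line read 6.71, 6.77 and 6.66 log2 units with anti-AL078604.2, against 6.56, 6.57 and 6.53 with control ASO. Here all 3 anti-AL078604.2 arrays lay above the controls, as they did for 9.28% of features, while 7.87% had them all below. The difference of 0.16 did not pass (95% interval -0.21 to 0.52, limma adjusted p = 0.873).

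In MDA-MB-468 none of the 3 genes passed either, where limma called 0.00670% of features. RTKN2 read 8.47, 8.82 and 9.05 log2 units on anti-AL078604.2 replicates 1, 2 and 3, against 8.83, 8.52 and 8.61 on the control arrays. The anti-AL078604.2 group held both the lowest and the highest array, and the difference was 0.13 (95% interval -0.54 to 0.79, limma adjusted p = 0.937).

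EVI5 in MDA-MB-468 read 7.67, 7.74 and 8.07 log2 units with anti-AL078604.2, against 7.79, 7.58 and 7.82 with control ASO, with overlapping groups and a difference of 0.09 (95% interval -0.49 to 0.68, limma adjusted p = 0.951). CLDN16 read 6.69, 6.62 and 6.77 log2 units with anti-AL078604.2, against 6.38, 6.24 and 6.74 with control ASO. Control replicate 3 lay among the anti-AL078604.2 arrays and the other controls below them, with a difference of 0.24 (95% interval -0.12 to 0.61, limma adjusted p = 0.671). The groups overlapped for all 3 genes in MDA-MB-468, where 8.41% of features had the anti-AL078604.2 arrays all above the controls and 8.50% all below. The responses of the triple-negative lines to the anti-AL078604.2 ASO, taken as MDA-MB-231 minus MDA-MB-468, differed by -0.06 for RTKN2 (95% interval -1.004 to 0.88), -0.12 for EVI5 (-0.94 to 0.71) and -0.09 for CLDN16 (-0.60 to 0.43), each with a limma adjusted p above 0.99. In that difference limma called 0 of 29855 features (0%), with 1243 at an unadjusted p under 0.05.

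These intervals carry the wide SKBR3 spread, because the fit shares 1 estimate of spread over all groups. Fitted on the 6 arrays of MDA-MB-231 alone, the 95% interval was -0.19 to 0.32 for RTKN2, -0.25 to 0.21 for EVI5 and -0.02 to 0.34 for CLDN16. On the MDA-MB-468 arrays alone it was -0.21 to 0.47 for RTKN2, -0.19 to 0.38 for EVI5 and -0.07 to 0.56 for CLDN16. The difference between SKBR3 and the other lines was not tested, since the SKBR3 values chose the genes.

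**Figure D4:**
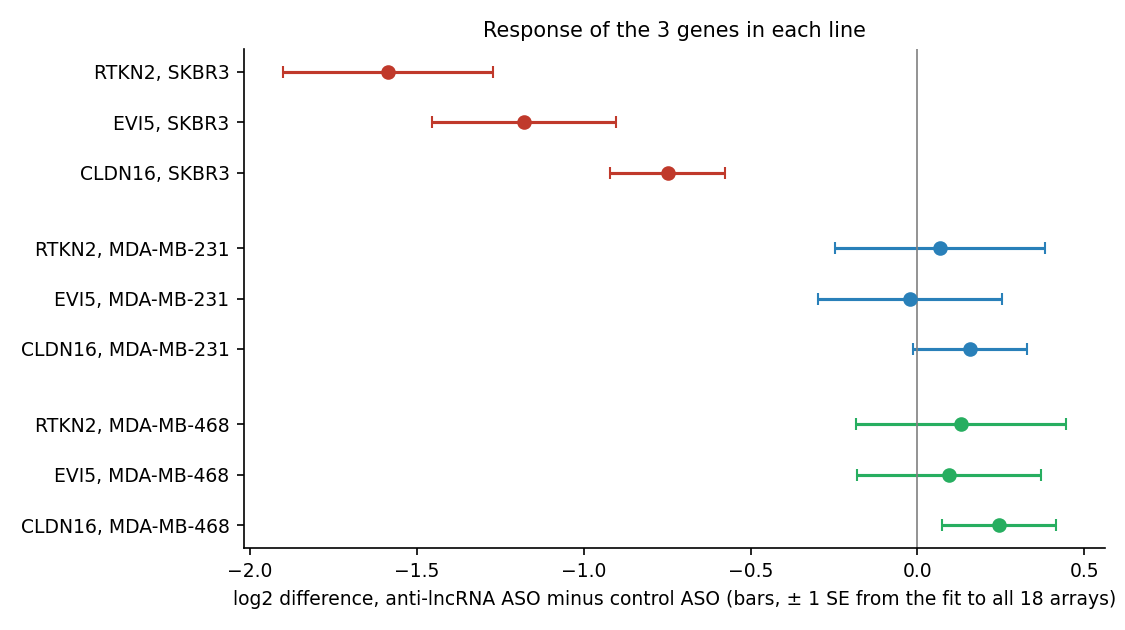
Log2 difference of RTKN2, EVI5 and CLDN16 between the anti-lncRNA ASO and the control ASO of each line, with bars of ± 1 SE from the fit to all 18 arrays (SKBR3 received anti-LINC01269, the other lines anti-AL078604.2). The SKBR3 values lie between -1.59 and -0.75 and those of the other lines between -0.02 and 0.24.

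On the quantile-normalised scale, the SKBR3 anti-LINC01269 group was the lowest of the 6 groups for each gene. RTKN2 averaged 6.88 ± 1.02 log2 units in SKBR3 with anti-LINC01269 and 8.51 ± 0.02 with control ASO (SD, n = 3 each). It averaged 8.59 ± 0.19 with anti-AL078604.2 and 8.52 ± 0.12 with control ASO in MDA-MB-231, and 8.64 ± 0.27 with anti-AL078604.2 and 8.50 ± 0.15 with control ASO in MDA-MB-468. Neighbours in the order of those 5 upper groups overlapped, and the SKBR3 anti-LINC01269 arrays lay below them all.

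EVI5 averaged 6.25 ± 0.88 log2 units in SKBR3 with anti-LINC01269 and 7.44 ± 0.11 with control ASO on that scale. In MDA-MB-231 it averaged 7.33 ± 0.12 with anti-AL078604.2 and 7.36 ± 0.14 with control ASO, and in MDA-MB-468 7.69 ± 0.19 with anti-AL078604.2 and 7.59 ± 0.13 with control ASO. Again the 5 upper groups overlapped with their neighbours in the order, while the SKBR3 anti-LINC01269 group stood apart from the next.

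CLDN16 differed in that its highest group mean was in SKBR3 control cells. It averaged 5.92 ± 0.48 log2 units in SKBR3 with anti-LINC01269 and 6.66 ± 0.01 with control ASO. It averaged 6.40 ± 0.05 with anti-AL078604.2 and 6.25 ± 0.02 with control ASO in MDA-MB-231, and 6.57 ± 0.06 with anti-AL078604.2 and 6.33 ± 0.26 with control ASO in MDA-MB-468. The SKBR3 control arrays only just failed to overlap with the next group, MDA-MB-468 with anti-AL078604.2. Their lowest array stood at 6.66 and the highest of that group at 6.64. The MDA-MB-468 anti-AL078604.2 group did not overlap with MDA-MB-231 with anti-AL078604.2. The 3 groups below overlapped with their neighbours, the SKBR3 anti-LINC01269 group included.

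Correlations between the 3 genes were higher with the SKBR3 arrays included, whose values chose the genes. Over the 12 arrays of MDA-MB-231 and MDA-MB-468, with each line's mean taken out, the Pearson correlation was 0.69 between RTKN2 and EVI5, 0.499 between EVI5 and CLDN16, and 0.225 between RTKN2 and CLDN16. With the 6 SKBR3 arrays included, which hold the low values the choice used, it was 0.961, 0.927 and 0.892 in the same order. The points share arrays and their normalisation, and the correlations are descriptions. Among 12003 named features, EVI5 had the highest correlation over all 18 arrays with RTKN2 and with CLDN16. The reverse did not hold, since by correlation with EVI5 RTKN2 ranked 6 and CLDN16 ranked 25. By correlation with RTKN2, CLDN16 ranked 18, and by correlation with CLDN16, RTKN2 ranked 10.

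The next named genes by correlation with RTKN2 over the 18 arrays were PREPL (0.948, and 0.74 without the SKBR3 arrays), HIBCH (0.945 and 0.53), ZNG1C (0.944 and 0.86) and ZNF383 (0.938 and 0.70). For EVI5 they were CCDC91 (0.972, and 0.78 without the SKBR3 arrays), HIBCH (0.970 and 0.55), TMF1 (0.969 and 0.71), ZNG1C (0.968 and 0.68) and PREPL (0.967 and 0.38). After EVI5, those for CLDN16 were ZNG1C (0.922, and 0.52 without the SKBR3 arrays), ZNF383 (0.918 and 0.63), MGP (0.915 and 0.73) and TMF1 (0.911 and 0.59). All were lower without the SKBR3 arrays, where they ran from 0.38 to 0.86. The genes were picked for high correlation over all 18 arrays, so lower values on part of them follow partly from that choice. Which arrays the likeness rests on was not tested. ZNG1C belongs to a family of near-identical genes whose signals an array may not separate. The names depended on the measure, since with Spearman's rank correlation 1 of the 5 was shared for each gene, and over the 6 SKBR3 arrays alone 1 of 5 for RTKN2, 1 of 5 for EVI5 and 0 of 5 for CLDN16.

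The nearest named genes on the array did not share the low values in SKBR3. Features with no symbol were passed over, so closer genes may be missing. Among the 3 named genes before and the 3 after each gene on its chromosome, 18 in all with 11 tested, the mean differences in SKBR3 ran from -0.30 to 0.29 log2 units. None of the 18 had its anti-LINC01269 arrays all below the controls, against 4.26% of tested features, so a count of none among 18 is near that share. The share covers tested features only, whereas the 18 include features too dim to be tested. The arrays lay all above the controls for 2, RPAP2 (0.10) and TMED5 (0.15), both near EVI5, against 7.28% of tested features. RTKN2 stood between ARID5B (-0.18), a gene of chromatin regulation, and ADO (-0.11), whose starts lie -282.2 and 620.8 kb from its own. EVI5 stood between GFI1 (-0.04), a transcriptional repressor gene, and MTF2 (-0.03), whose starts lie -35.7 and 570.6 kb from its own. GFI1 did not pass the filter on dim features, so its value says little. CLDN1, another claudin gene, lies inside the annotated span of CLDN16 on the opposite strand and differed by -0.10, with overlapping groups. In MDA-MB-231 and MDA-MB-468 no tested neighbour passed, and the smallest limma adjusted p was that of CLDN1 in MDA-MB-231 (0.42, adjusted p = 0.0988).

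**Figure D5:**
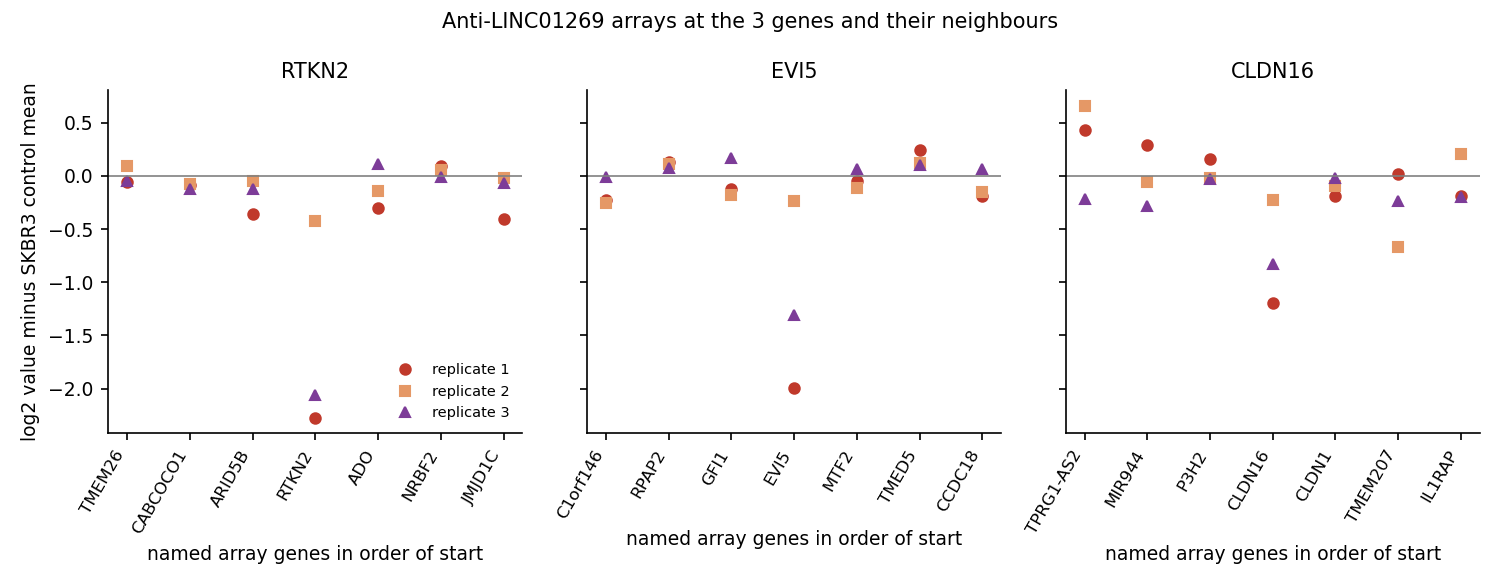
Log2 value on each anti-LINC01269 array minus the SKBR3 control mean for RTKN2, EVI5 and CLDN16 and for the 3 named array genes on either side, in order of start along the chromosome. The deep values of replicates 1 and 3 occur at the 3 genes and not at their neighbours, of which the lowest array was TMEM207 on replicate 2 (-0.67). TMEM207 did not pass the filter on dim features.

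Relatives and partners of EVI5 did not pass in any line. Limma called 0 of 29855 features in SKBR3, 51 in MDA-MB-231 and 2 in MDA-MB-468. None passing in a short list is near those shares and shows nothing particular to its genes. The list held other TBC-domain proteins, the RAB11 pathway, EMI1 and the chromosomal passenger complex, with 14 of 28 genes named and tested. At an unadjusted p under 0.05 limma had 2736 of 29855 features in SKBR3, 2792 in MDA-MB-231 and 3131 in MDA-MB-468. In SKBR3 0 passed, 0 had an unadjusted p under 0.05 and the median was 0.03 against 0.01 over all features. The smallest p values were those of the TBC-domain genes RABGAP1L (-0.31, adjusted p = 0.583) and RABGAP1 (-0.18) and of RAB11FIP5 (0.17), a gene of the RAB11 pathway. In MDA-MB-231 0 passed and 0 had an unadjusted p under 0.05 (median 0.01 against 0.01), with RABGAP1 (-0.14), RAB11FIP1 (0.15) and RAB11FIP2 (0.19) first. In MDA-MB-468 0 passed and 1 had an unadjusted p under 0.05, the passenger complex gene BIRC5 (-0.21, adjusted p = 0.403, median -0.05 against -0.0035). FBXO5, which encodes EMI1, came next in MDA-MB-468 (0.14, adjusted p = 0.561), then the passenger complex gene CDCA8 (-0.10).

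The other claudin and tight junction genes did not pass in any line. Here too none passing is near the share over all features, of which limma called 0 of 29855 in SKBR3. It called 51 in MDA-MB-231 and 2 in MDA-MB-468. Of 37 such genes, 34 were named and 27 tested. The counts at an unadjusted p under 0.05 stand beside 2736 of all 29855 features in SKBR3, 2792 in MDA-MB-231 and 3131 in MDA-MB-468. In SKBR3 their differences ran from -0.26 to 0.27 log2 units with a median of -0.05 against 0.01, and 0 passed, with 1 at an unadjusted p under 0.05, the scaffold gene PATJ (-0.26, adjusted p = 0.460). The next by p were OCLN, the gene of the junction protein occludin (0.16), and CLDN8 (-0.22). In MDA-MB-231 0 passed and 3 had an unadjusted p under 0.05, CLDN1 (0.42), the scaffold gene TJP1 (-0.28) and the polarity gene PARD3 (-0.40), with a median of -0.02 against 0.01. In MDA-MB-468 0 passed and 3 had an unadjusted p under 0.05, CLDN4 (-0.38), CLDN8 (-0.32) and CLDN3 (-0.22), with a median of -0.01 against -0.0035. CLDN19, the partner of CLDN16 in the kidney, differed by 0.06 in SKBR3.

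Of 13 magnesium transport genes, 8 were named and tested. With so few features called in any line, none passing in this list is near the share over all features. Unadjusted p was under 0.05 for 2736 of all 29855 features in SKBR3, 2792 in MDA-MB-231 and 3131 in MDA-MB-468. In SKBR3 0 passed and 1 had an unadjusted p under 0.05, the transporter gene CNNM4 (-0.21, adjusted p = 0.467), followed by CNNM3 (-0.23) and MAGT1 (0.05), with a median of -0.03 against 0.01. In MDA-MB-231 0 passed and 0 had an unadjusted p under 0.05, with CNNM2 (-0.18), NIPA2 (-0.13) and CNNM4 (-0.09) first and a median of -0.03 against 0.01. In MDA-MB-468 0 passed and 2 had an unadjusted p under 0.05, NIPA2 (-0.17) and MAGT1 (-0.15), followed by CNNM2 (-0.17), with a median of -0.11 against -0.0035.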

How the data were processed

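RNA of 3 breast cancer lines was hybridised to 18 arrays. Per the submitters' processing notes, the authors used Transcriptome Analysis Console. Which version they ran, how probes were summarised and normalised, and the genome build are not given in the sources used here. For each feature and array, the authors deposited 1 value, between 0.41 and 13.84, which was taken as log2 expression from this range, because no label or header names a scale. Arrays carry no counts, so their number limits the precision.

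Of 53617 features, 16098 had 1 gene symbol in GEO's platform annotation and 37519 had none here. Symbols were updated through a RefSeq table of GRCh38.p14, which also gave places, spans and promoter windows. Tests covered 29855 features, those whose mean in 1 or more of the 6 groups lay above that group's median feature mean. One limma 3.58.1 model with a mean per group, run in R 4.3.3, took in the 18 arrays (intensity trend, 12 residual and 4.33 prior degrees of freedom), with two-sided p-values, Benjamini-Hochberg adjustment over all tested features and a threshold of 0.05. The fit was tested on simulated data.

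The members and the gene lists were chosen with earlier results of these data known. Genes were named by rule: the 3 members, the 5 named features with the highest correlation to each, the 3 named neighbours on either side (of which the text gives the nearest), the 3 smallest p in each list of related genes, and fixed line markers; CLDN19 and the 8 genes at least 2-fold lower were added after their values were seen. The genes related to RTKN2 are not reported here. Lists use 1 feature per gene, the one with the highest mean. Deviations of same-numbered arrays from their group means were only weakly correlated (-0.124 to 0.101), and the main fit did not pair arrays by number. With 3 arrays per group this cannot exclude a culture or batch shared by number.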

Additional observations from a re-analysis of the deposited data

How the results depend on the processing

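Over omissions of 1 array the log2 differences of RTKN2, EVI5 and CLDN16 in SKBR3 ran from -2.16 to -1.24, -1.65 to -0.77 and -1.01 to -0.53. Their sign was fixed by the choice of genes, whose groups do not overlap, and shows nothing about stability. With the replicate number as a block they were -1.59, -1.18 and -0.75, as a balanced design requires. None of the 3 genes passed in MDA-MB-231, in MDA-MB-468 or in the difference between them under any alternative run (adjusted p of 0.519 or more). For EVI5 and RTKN2 the differences in these lines changed sign in some omissions of 1 array, and for CLDN16 they did not (0.13 to 0.18 in MDA-MB-231 and 0.14 to 0.39 in MDA-MB-468). In MDA-MB-231 the range over omissions was -0.0877 to 0.0529 for EVI5 and -0.0479 to 0.14 for RTKN2, and in MDA-MB-468 -0.0279 to 0.17 for EVI5 and -0.0044 to 0.28 for RTKN2. The difference between these lines changed sign for all 3 genes, with ranges of -0.20 to 0.0058 for EVI5, -0.22 to 0.0708 for RTKN2 and -0.23 to 0.0214 for CLDN16. Counts of called features varied more. In SKBR3 limma called 0, and 1 with no filter, and 0 to 231 over omissions of 1 array, with 231 without anti-LINC01269 replicate 2, 5 without control replicate 2 and 1 without anti-LINC01269 replicate 3. In MDA-MB-231 it called 51, but 0 with the replicate block, 28 with no filter, 26 without the intensity trend, 3 on the arrays of the line alone, and 0 to 532 over omissions, with 532 without anti-AL078604.2 replicate 1 and 0 when each of the other 5 arrays was left out in turn. In MDA-MB-468 it called 2, but 0 with the replicate block, 0 on the arrays of the line alone, and 0 to 12 over omissions, with 12 without anti-AL078604.2 replicate 3. The order of the 6 groups was the same on percentile ranks for each gene. Of the 5 genes most like each member, Spearman's rank correlation shared 1 for each, and the 6 SKBR3 arrays alone shared 1 for RTKN2, 1 for EVI5 and 0 for CLDN16. The cause was not tested.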
